A study of Mus musculus with 21 samples.

Results

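The constitutive proteasome subunit genes were followed across newborn brain, liver and skin. They were taken as every symbol in the count files that reads Psma, Psmb, Psmc or Psmd followed by a number, without the inducible subunits Psmb8, Psmb9 and Psmb10. This rule, which used names and no measured value, gave 36 of the 24391 genes, on 16 chromosomes: 16 genes of the core particle and 20 of the regulatory particle. All mice were newborns at postnatal day 0, of strain C57BL/6 by the labels and C57BL/6J by the study's methods. Knock-in (KI) mice were heterozygous Jak1 H595D/+;I596I/+;Y597Y/+, carrying 1 amino acid change and 2 synonymous changes made with CRISPR-Cas9, and WT mice had the unedited Jak1. The KI mice were offspring of a mosaic male, only 2 of them were sequenced beside 5 WT mice, and a count per gene cannot show the edited bases. RNA of whole brain, liver and skin was sequenced, 1 library per mouse and tissue, 21 libraries in all.

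The proteasome is the machine that degrades proteins marked with ubiquitin. Its core particle is a barrel of outer alpha rings, which gate the entrance, and inner beta rings, in which Psmb5, Psmb6 and Psmb7 carry the protease activity. The regulatory particle caps the barrel: its base holds a ring of ATPases (Psmc1 to Psmc6) that unfold and feed in the substrate, and its lid removes the ubiquitin chains. In cells exposed to interferon, Psmb8, Psmb9 and Psmb10 replace the constitutive protease subunits. Jak1 is a kinase that passes on the signal of cytokine receptors, those of interferon included. The Psmd symbols also include assembly chaperones (Psmd5, Psmd9 and Psmd10), and the Psma and Psmb symbols include the testis subunit Psma8 and the thymus subunit Psmb11.

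Each library held between 26549326 and 38388133 counts on genes, and no 2 libraries were identical. The tissue labels held against their markers. The summed level of 6 neuron genes was at least 7639 CPM (counts scaled to a library of 1e+06) in brain and at most 14.7 CPM in liver, and that of 7 hepatocyte genes was at least 160300.0 CPM in liver and at most 36.7 CPM in skin. In brain the hepatocyte genes summed to 877 and 971 CPM in the KI libraries and to between 37.0 and 2561 CPM in the WT libraries. In skin the summed level of 6 keratinocyte genes ranged from 860 to 16614 CPM between libraries. In the following, called means an adjusted p under 0.1 in the quasi-likelihood test of edgeR, with the Benjamini-Hochberg adjustment run over all tested genes. 35 of the 36 members passed the filter on low counts in every tissue. The remaining one, Psmb11, had between 0 and 3 counts in each library and was not tested.

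HTSeq by default leaves out reads that fit several places in the genome, and many proteasome genes have near-identical processed copies. When the transcripts of the members were broken into windows of 75 bases, 96.9% of the windows of Psmb5 and 96.4% of those of Psmb3 also matched elsewhere in the genome with at most 2 mismatches. The share was 78.1% for Psma5, 77.2% for Psma4, 55.0% for Psmd2 and 53.6% for Psmc1, and it was 44.3% for Psmd11 and 33.7% for Psma3. The levels of these genes can therefore be understated. By the study's methods the reads were paired and longer than 75 bases, so these shares can overstate the loss of counts. 19 members, 6 of the core and 13 of the regulatory particle, had under 1% of windows that also matched elsewhere.

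In WT tissues Psma7, an alpha ring subunit, had the highest mean level of all members in every tissue. Levels between genes were compared as CPM per kb of transcript (CPM normalised over the 15 WT libraries). Psma7 stood at 260 ± 63.5 CPM per kb in brain, 160 ± 7.26 in liver and 156 ± 8.94 in skin (SD, n = 5). Its range overlapped with that of the next gene in each tissue: Psmb1 in brain, Psmb4 in liver and Psmb2 in skin. Of the windows of Psmb1, 17.1% also matched elsewhere. The lowest core gene with a clear level was Psma3, another alpha subunit, at 6.95 ± 0.819, 2.44 ± 0.319 and 2.59 ± 0.209 CPM per kb in the same order (SD, n = 5). The share of its windows that match elsewhere was 33.7%. The testis subunit Psma8 was near background, at 0.165 ± 0.0652 CPM per kb in brain, 1.06 ± 0.397 in liver and 0.175 ± 0.101 in skin (SD, n = 5). Most of the low core genes are those with shared sequence. Among the members with unshared sequence, leaving out Psma8, the core genes had means of 158 to 260 CPM per kb in brain and 106 to 156 in skin, and the regulatory genes 18.3 to 121 in brain and 13.0 to 112 in skin.

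The protease subunits did not have one common level. Psmb6 was at 205 ± 57.1, 122 ± 5.99 and 141 ± 15.5 CPM per kb in brain, liver and skin, and Psmb7 at 137 ± 18.5, 98.1 ± 3.40 and 74.8 ± 10.2 CPM per kb (SD, n = 5). Psmb5, the chymotrypsin-like subunit, was listed at only 47.5 ± 11.8, 28.8 ± 1.81 and 29.2 ± 3.15 CPM per kb (SD, n = 5), but nearly all of its sequence is shared with other loci. Among the regulatory genes the leader changed with the tissue: the lid gene Psmd7 in brain (121 ± 16.0 CPM per kb), the ubiquitin receptor Psmd4 in liver (114 ± 3.80) and the ATPase Psmc5 in skin (112 ± 21.7; SD, n = 5). Psmd11, a lid subunit, was lowest in all 3 tissues, at 7.27 ± 1.37, 14.2 ± 0.972 and 8.74 ± 0.785 CPM per kb (SD, n = 5). Most neighbours in the order of levels could not be told apart. In brain the ranges of 10 of 15 neighbouring core pairs and 16 of 19 regulatory pairs overlapped. In liver these counts were 8 and 15, and in skin 8 and 17, of the same numbers of pairs.

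**Figure D1:**
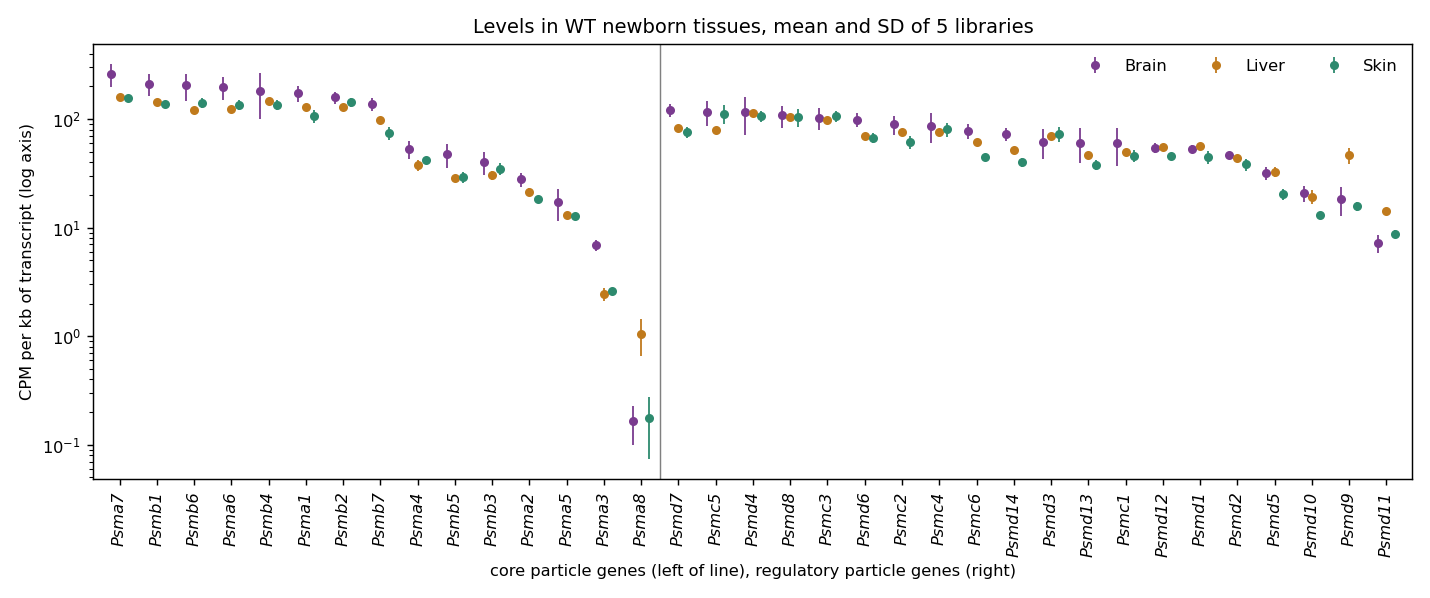
Mean CPM per kb of transcript (log axis) of 35 members in the 5 WT libraries of brain, liver and skin, with the SD as bars. Psma7 has the highest mean among the core genes in each tissue, and brain lies above liver and skin for most core genes.

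Most core genes were higher in WT brain than in the other tissues, and the regulatory genes less uniformly so. Against liver, 13 of 15 tested core genes were called higher in brain and 1 lower, while 43.3% of all tested genes were called higher and 40.2% lower. The median log2 difference was 0.48 over the core genes and 0.06 over all genes. Of the 20 regulatory genes, 6 were called higher and 2 lower, with a median of 0.09. Against skin, 12 core genes were called higher in brain and 0 lower, and 12 regulatory genes higher and 1 lower, where 39.1% of all genes were called higher and 40.3% lower. The medians were 0.56, 0.27 and -0.02 on the log2 scale for core, regulatory and all genes. Tissues differ in their mix of cell types, and in bulk RNA fewer cells of a type and less RNA per cell cannot be told apart. The 3 tissue comparisons share libraries and are given side by side only. Few of the calls were large: at a minimum of 2-fold, 1 core gene was called higher and 1 lower against liver, and 1 regulatory gene lower (32.3% of all genes higher, 29.0% lower). Against skin 1 core gene was called higher by that rule (25.5% higher, 28.4% lower), and between liver and skin 1 core and 1 regulatory gene (18.5% higher, 27.1% lower).

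Psma3 set brain apart most clearly. Its CPM was 22.4, 21.8, 19.6, 18.4 and 16.8 in the WT brains 1 to 5, against 7.48, 7.01, 8.09, 5.80 and 6.33 in the livers and 7.80, 7.90, 6.88, 7.71 and 6.60 in the skins. No brain value overlapped with another tissue, and the log2 difference was 1.51 ± 0.14 (SE) against liver and 1.42 ± 0.14 against skin (edgeR adjusted p = 5.07e-08 and 1.37e-07). The protease genes were also higher in brain. Psmb6 differed from liver by 0.75 ± 0.15, Psmb5 by 0.72 ± 0.14 and Psmb7 by 0.49 ± 0.11, and from skin Psmb7 differed by 0.88 ± 0.11, Psmb5 by 0.70 ± 0.14 and Psmb6 by 0.54 ± 0.15 (log2 difference ± SE, all called by edgeR). Psma7 was higher in brain by 0.70 ± 0.13 and 0.74 ± 0.13 in the same order. In the regulatory particle, Psmd7 was higher in brain than in liver by 0.56 ± 0.11. Psmd14, the enzyme that cuts ubiquitin chains from substrates, exceeded skin by 0.86 ± 0.10, the ATPase Psmc6 by 0.79 ± 0.10 and the lid gene Psmd13 by 0.68 ± 0.17 (log2 difference ± SE, all called by edgeR). The brain of WT mouse 5 was the highest WT brain for most members. Without the libraries numbered WT 5, the differences from skin were 0.38 for Psmd13 and 0.35 for Psmb6, both still called. Psma4 (0.24), Psma5 (0.21), Psmb4 (0.07), Psmc1 (0.09) and Psmd11 (-0.18) were then no longer called against skin. Against liver, Psma5 (0.20) and Psmd13 (0.11) were no longer called. Psmd3 was then called lower in brain than in liver (-0.41) and skin (-0.49), and Psmd4 lower than in liver (-0.24).

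A few genes went the other way and marked liver instead. The chaperone Psmd9 had 105, 118, 114, 157 and 113 CPM in the WT livers, where the brains had 46.2, 40.4, 40.5, 38.6 and 72.4 CPM and the skins 39.6, 41.2, 36.5, 47.4 and 38.8 CPM. Every liver was above every brain and skin, with a log2 difference of -1.35 ± 0.17 for brain minus liver and 1.58 ± 0.17 for liver minus skin (edgeR adjusted p = 1.7e-06 and 5.45e-07). Psmd11 was likewise lower in brain by 0.96 on the log2 scale (SE 0.13) and higher in liver than in skin by 0.70 ± 0.13. Psma8 had 0.966, 1.69, 2.73, 1.44 and 2.12 CPM in the livers, between 0.102 and 0.390 CPM in the brains and between 0.123 and 0.569 CPM in the skins. It was called in liver over both tissues, with log2 differences of -2.66 ± 0.44 and 2.57 ± 0.44, at a level far under that of the other alpha subunits. Between brain and skin it was not called, and its difference of -0.09 ± 0.45 turned positive when the libraries numbered WT 3 were left out.

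Between liver and skin, Psma8 and the chaperone Psmd9 differed most. 4 of 15 core genes were called higher in liver and 0 lower, with a median log2 difference of 0.02, where 32.5% of all genes were called higher and 39.8% lower. Leaving out the libraries numbered WT 2 or WT 3 left 2 core genes called. Without WT 5, 3 were called higher and 2 lower, Psmb3 (-0.27) and Psmb6 (-0.24). The share of all genes called was not taken for these fits, so a change across the whole table cannot be told from one in the members. Beside Psma8, the largest core differences were those of Psmb7 (0.39 ± 0.11) and Psma1 (0.27 ± 0.12, not called without WT 2, 3 or 5), and Psma2 was the other gene called (0.22 ± 0.11). The other genes named in each comparison were not called with all libraries, at 0.04 ± 0.13 for Psma7, -0.02 ± 0.14 for Psmb5 and -0.21 ± 0.15 for Psmb6 (log2 difference ± SE). 10 of 20 regulatory genes were called higher in liver and 1, the ATPase Psmc5, lower, with a median of 0.24. All 3 chaperones were among those higher, Psmd5 by 0.69 ± 0.12 and Psmd10 by 0.57 ± 0.14 beside Psmd9 (log2 difference ± SE).

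In the brains of KI mice nearly all core genes had lower counts than in WT brains, but none passed the test. Of 15 core genes, 14 had both KI libraries below all 5 WT libraries, and so had 14 of 20 regulatory genes, where 15.8% of all tested genes did. No gene of the whole table was called in brain by edgeR (0.0% of 16322 in either direction). At an unadjusted p under 0.05, 13 core and 7 regulatory genes were lower and 0 were higher, against 7.81% and 2.80% of all genes. By DESeq2's Wald test, 7 core and 2 regulatory genes were called lower, where 3.21% of all genes were. In an edgeR fit over all 21 libraries, which shares 1 estimate of the spread, these counts were 9 and 4 (2.44% of all genes). The median log2 fold change was -0.70 over the core genes, -0.40 over the regulatory genes and -0.02 over all genes. The values in this and the following sections are CPM normalised within a tissue and are not on the scale of the WT values above.

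The largest core differences were those of Psma1, Psmb1 and Psma4. Psma1, an alpha subunit (mm9, chr7:121408120-121419632, minus strand, 10 exons), had 148 and 131 CPM in the KI brains and 301, 237, 224, 209 and 302 CPM in the WT brains 1 to 5. Both KI values lay far below the lowest WT value, and the log2 fold change was -0.87 ± 0.19 (SE; edgeR adjusted p = 0.258). The beta subunit Psmb1 (chr17:15612685-15635240, minus strand, 6 exons) had 160 and 142 CPM in the KI brains and 293, 247, 226, 208 and 369 CPM in the WT brains. Its log2 fold change was -0.83 ± 0.23 (edgeR adjusted p = 0.304). Psma4 (chr9:54798597-54805837, plus strand, 9 exons) had 47.7 and 39.5 CPM against 86.3, 70.0, 64.0, 62.3 and 96.3 CPM, with -0.80 ± 0.21 (edgeR adjusted p = 0.284). For both genes, too, the KI values did not overlap with WT.

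Before the length of transcripts was taken into account (below), the 3 protease genes had similar log2 fold changes. Psmb7 had 123 and 116 CPM in the KI brains and 218, 185, 179, 167 and 234 CPM in the WT brains, a log2 fold change of -0.72 ± 0.16 (edgeR adjusted p = 0.27). Psmb5 had 33.7 and 32.5 CPM against 52.7, 45.8, 42.1, 41.5 and 73.2 CPM (-0.62 ± 0.24, edgeR adjusted p = 0.423). Psmb6 had 139 and 125 CPM against 187, 188, 157, 172 and 303 CPM (-0.61 ± 0.25, edgeR adjusted p = 0.449). In each of these genes WT mouse 5 was the highest. The abundant Psma7 had 196 and 179 CPM in the KI brains and 296, 255, 245, 247 and 421 CPM in the WT brains (-0.64 ± 0.23, edgeR adjusted p = 0.391). The other core genes ranged from -0.79 to -0.50, except Psma8, which had 0.558 and 0.494 CPM in KI against 0.484, 0.422, 0.126, 0.328 and 0.359 CPM in WT (0.61 ± 0.52, edgeR adjusted p = 0.719). The alpha ring had a median of -0.75 and the beta ring of -0.65.

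**Figure D2:**
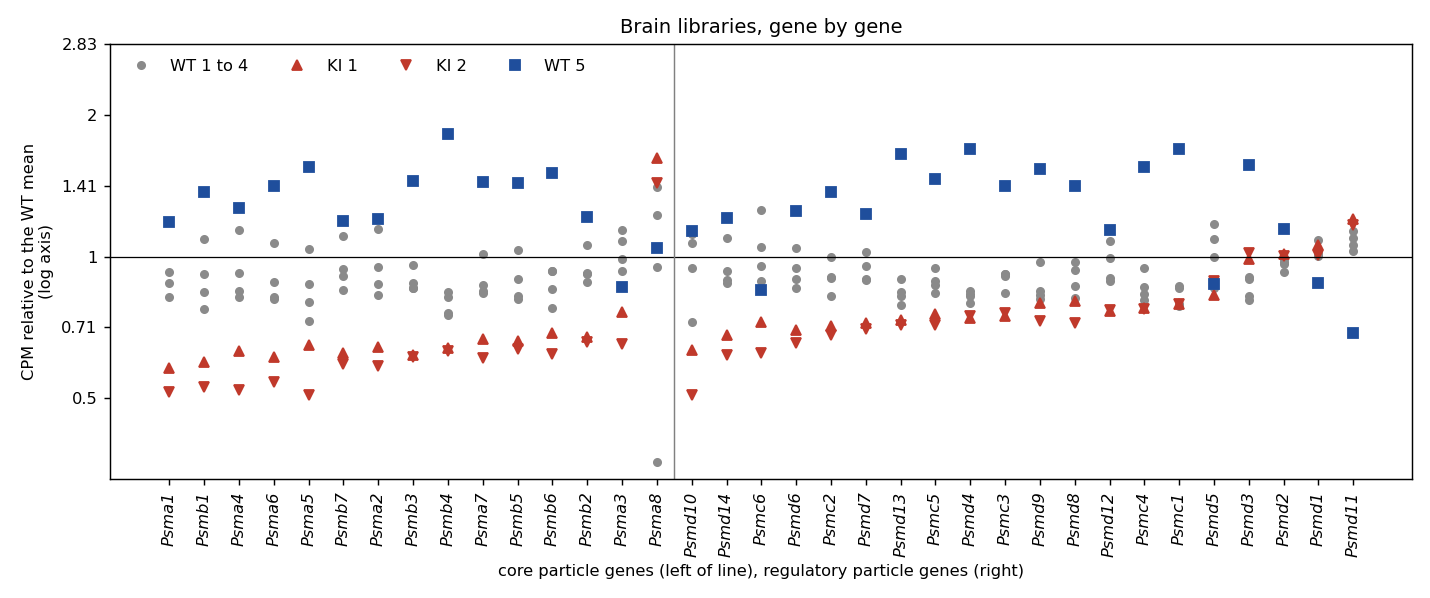
CPM of 35 members in each of the 7 brain libraries, divided by the mean of the 5 WT libraries (log axis). The KI libraries (red triangles) lie below every WT library for 14 of 15 core and 14 of 20 regulatory genes, and WT mouse 5 (blue squares) lies above the other WT mice for most genes.

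The regulatory genes were less uniform. The chaperone Psmd10, also called gankyrin (mm9, chrX:137482968-137491267, minus strand, 5 exons), had 23.1 and 18.4 CPM in the KI brains and 40.7, 38.9, 34.4, 26.4 and 41.3 CPM in the WT brains. Psmd14 had 94.0 and 85.2 CPM against 151, 123, 128, 121 and 166 CPM. Psmc6 had 152 and 131 CPM against 263, 220, 201, 187 and 178 CPM. None of these groups overlapped, and the log2 fold changes were -0.81 ± 0.21, -0.62 ± 0.16 and -0.57 ± 0.18 (SE; edgeR adjusted p = 0.284, 0.279 and 0.337). All 6 ATPase genes had negative values, with a median of -0.43, as had 6 of the 8 lid genes, where 52.8% of all genes did. The scaffold genes Psmd1 and Psmd2, on which the base is built, were at 0.05 ± 0.12 and 0.01 ± 0.12, and the lid gene Psmd3 at 0.00 ± 0.26. Psmd11 was the one regulatory gene with both KI brains above all WT brains, where 11.2% of all genes had them above. It had 30.6 and 29.6 CPM against 26.2, 28.8, 27.8, 26.9 and 17.5 CPM (0.24 ± 0.21, edgeR adjusted p = 0.715). Among the core genes only the low Psma8 had both KI brains above.

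WT mouse 5 decided how many brain differences were called. It was the highest WT library for most members, for example 485 CPM of Psmb4 where the other WT brains had between 200 and 224 CPM. Among the brain libraries it also had the fewest counts on genes (26549326) and the fewest genes with a count (17834). Without it, 13 of 15 core genes were called lower, and 7 of 20 regulatory genes lower and 1, Psmd3, higher, against 6.32% of all genes lower and 4.14% higher (edgeR). The median log2 fold change was then -0.53 over the core and -0.22 over the regulatory genes. Psma1 stood at -0.78 (adjusted p = 0.0369), Psmb1 at -0.67 (0.0407), Psmb7 at -0.63 (0.0363) and Psmd14 at -0.53 (0.0405) by edgeR. With any other single mouse left out, 0 core and 0 regulatory genes were called, and the share of all genes was not taken for those fits.

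Short transcripts were lower in the KI brains throughout the table, and the core genes have short transcripts. Their median length was 1162.5 bases, against 1802 bases for the regulatory genes. Over all tested genes with a known length, the median log2 fold change in brain was -0.66 under 1000 bases, -0.36 from 1000 to 1500 bases, -0.19 from 1500 to 2000 bases, -0.06 from 2000 to 3000 bases and 0.14 above. The 5 members under 1000 bases were at -0.62, near the other genes of that length. The 12 members from 1000 to 1500 bases were at -0.75, the 9 members from 1500 to 2000 bases at -0.41 and the 8 members from 2000 to 3000 bases at -0.30, each below the other genes of that length. Without WT mouse 5 the trend over all genes was weaker, with medians of -0.44, -0.19, -0.073, 0.0012 and 0.10 from the shortest class to the longest. With all libraries kept and a smooth trend on length taken off, the median was -0.30 over the core and -0.18 over the regulatory genes. The protease genes were then no longer alike, at -0.047 for Psmb5, 0.017 for Psmb6 and -0.30 for Psmb7, and Psma7 was at -0.094. The neuron markers summed to 7639 and 8332 CPM in the KI brains and to between 8268 and 9558 CPM in the WT brains, and none of the 6 was called. Low-level markers of 3 other cell types lay below every WT brain, with 0 called. 6 keratinocyte genes summed to 48.8 and 50.3 CPM in KI against 58.8 to 108 CPM. 6 muscle genes summed to 9.12 and 11.6 against 11.9 to 59.1 CPM, and 6 neutrophil genes to 0.668 and 1.81 against 1.92 to 6.19 CPM. The other lists overlapped with WT. The hepatocyte list, whose genes do not show that brain held hepatocytes, was at 877 and 971 against 37.0 to 2561 CPM. The lists of fibroblasts (353 and 371 against 104 to 797 CPM) and macrophages (125 and 133 against 95.0 to 155 CPM) overlapped as well. So did those of erythroid cells (4.94 and 5.95 against 5.79 to 17.6 CPM) and proliferating cells (182 and 229 against 159 to 304 CPM). The share of alignments set aside as not unique was 17.998% and 17.1% in the KI brains and 20.5 to 24.0% in the WT brains. What part transcript length, the mix of cells or the non-unique alignments had in the difference was not tested.

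**Figure D3:**
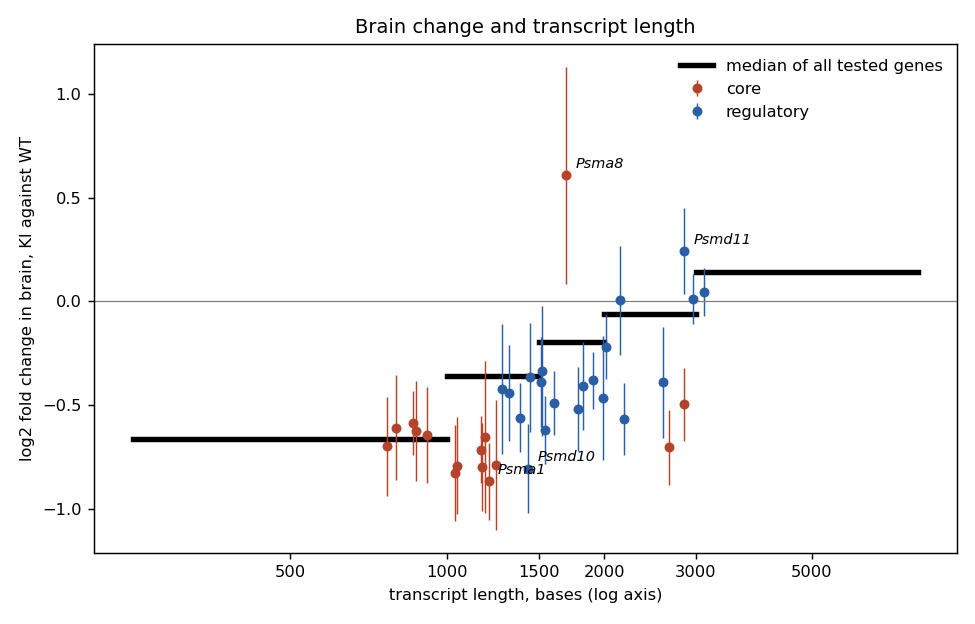
Log2 fold change in brain (KI against WT, with its SE) of 35 members against the length of their transcript (log axis), with the median of all tested genes in 5 length classes as black lines. Members of 1000 to 3000 bases sit mostly under the line of their class, and the median of those under 1000 bases is near it.

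The sequence before the start site is shown for the 3 core and 3 regulatory genes with the largest brain differences, except Psmb1, which has no entry in the RefSeq promoter table (build GRCm38.p6), to set side by side the starts of genes whose KI brains lay on the same side of WT. Capitals mark matches on either strand to TGANNNNGC, the core of the antioxidant response element, or to CCAAT. Each run holds the 250 bases before the start site in the direction of the gene. The regions are chr7:114276117-114276366 (minus strand), chr9:54950609-54950858 (plus), chrX:140956712-140956961 (minus), chr2:61711444-61711693 (plus) and chr14:45329574-45329823 (plus).
Psma1: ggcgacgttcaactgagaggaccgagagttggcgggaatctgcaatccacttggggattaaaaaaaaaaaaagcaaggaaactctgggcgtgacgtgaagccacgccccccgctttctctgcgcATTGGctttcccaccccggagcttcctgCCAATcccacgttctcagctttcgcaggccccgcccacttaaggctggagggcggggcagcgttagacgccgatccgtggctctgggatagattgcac
Psma4: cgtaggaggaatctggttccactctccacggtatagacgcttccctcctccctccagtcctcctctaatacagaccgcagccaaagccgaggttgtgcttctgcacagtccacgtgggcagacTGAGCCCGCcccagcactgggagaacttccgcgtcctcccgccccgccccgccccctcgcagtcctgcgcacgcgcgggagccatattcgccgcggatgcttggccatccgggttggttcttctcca
Psmd10: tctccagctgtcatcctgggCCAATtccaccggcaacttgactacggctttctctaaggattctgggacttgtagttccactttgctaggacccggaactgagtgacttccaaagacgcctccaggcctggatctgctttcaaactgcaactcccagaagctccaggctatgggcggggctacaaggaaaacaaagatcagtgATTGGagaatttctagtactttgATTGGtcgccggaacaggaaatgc
Psmd14: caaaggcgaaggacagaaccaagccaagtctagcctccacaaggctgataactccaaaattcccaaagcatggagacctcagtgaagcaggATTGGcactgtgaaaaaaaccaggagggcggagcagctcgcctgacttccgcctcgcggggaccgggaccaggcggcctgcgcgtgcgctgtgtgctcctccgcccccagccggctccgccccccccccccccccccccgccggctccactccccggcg
Psmc6: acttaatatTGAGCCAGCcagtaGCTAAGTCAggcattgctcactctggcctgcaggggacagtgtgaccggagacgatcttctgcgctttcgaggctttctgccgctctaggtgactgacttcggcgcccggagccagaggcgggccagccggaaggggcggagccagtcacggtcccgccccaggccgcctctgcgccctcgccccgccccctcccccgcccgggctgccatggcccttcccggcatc
Psma1 had CCAAT matches beginning 126 and 98 bases before the start, and no match to TGANNNNGC. Psmd10 had 3 CCAAT matches, at 230, 47 and 24 bases before the start. Psma4 had a TGANNNNGC match 127 bases before the start and another 23 bases after it, beyond the printed run. Psmc6 had 2, at 241 and 227 bases before the start. Psmd14 had a CCAAT match 159 bases before the start and 2 more at 4 and 7 bases after it, and none to TGANNNNGC. The search covered 300 bases, from 250 before to 50 after the start, in 31 windows of 29 members. TGANNNNGC was found in 10 of 13 core and 8 of 18 regulatory windows, and in 41.3% of all 32851 windows of the table. CCAAT was found in 7 core and 5 regulatory windows and in 37.4% of all. TTCNNNGAA, a site of the STAT factors downstream of Jak1, was found in 1 member window, that of Psmd2, and in 8.30% of all. These matches are descriptions of the sequence only.

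In the livers of KI mice the constitutive genes had small fold changes. 0 of 35 members were called by edgeR or by DESeq2, where 3.89% of all genes were called higher and 1.68% lower by edgeR, and 1 member was higher at an unadjusted p under 0.05 (9.49% of all genes). Among the core genes, 14 of 15 had a positive log2 fold change (46.8% of all genes), the median was 0.11 and that of the regulatory genes -0.01. Both KI livers were above all WT livers in 5 core genes and 1 regulatory gene (13.0% of all genes), and below in 1 regulatory gene, Psmd3 (11.3%). Psma7 had 119 and 120 CPM in KI and 108, 98.9, 108, 95.4 and 108 CPM in WT. The KI values did not overlap with WT, at a log2 fold change of 0.20 ± 0.09 (unadjusted p = 0.0471, adjusted p = 0.273 by edgeR). Psmb1 stood at 0.19 ± 0.09, the low Psma8 at 0.55 ± 0.39, the lid gene Psmd8 at 0.15 ± 0.09, Psmd10 at 0.13 ± 0.15 and Psmd1 at -0.11 ± 0.10 (log2 fold change ± SE). The protease genes were near 0, with 0.05 ± 0.11 for Psmb5, 0.11 ± 0.08 for Psmb6 and 0.01 ± 0.08 for Psmb7.

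In the skin of KI mice 34 of 35 members had a negative log2 fold change, where 56.7% of all genes did, but the values were small. Short transcripts were lower in skin as well, with a median of -0.12 over all genes under 1000 bases. With the length trend removed, 10 of 15 core and 15 of 20 regulatory genes were below 0, with medians of -0.026 and -0.032. 0 members were called by edgeR or DESeq2, as were 0.0% of all genes lower and 0.0247% higher by edgeR. 1 member was lower at an unadjusted p under 0.05 (1.68% of all genes). The median was -0.15 over the core, -0.11 over the regulatory and -0.03 over all genes. The core median was -0.088 without KI mouse 1, and the regulatory median -0.053 without WT mouse 4. Both KI skins lay below all WT skins in 7 core and 5 regulatory genes (4.84% of all genes). The alpha subunit Psma2 had 44.7 and 45.0 CPM in KI and 60.6, 55.9, 55.9, 57.1 and 51.3 CPM in WT, without overlap, and -0.33 ± 0.10 on the log2 scale (unadjusted p = 0.0123, adjusted p = 0.872 by edgeR). Psmb3, a beta subunit, stood at -0.31 ± 0.14, Psma3 at -0.25 ± 0.18, Psmd14 at -0.27 ± 0.12, the lid gene Psmd6 at -0.23 ± 0.12 and Psmc5 at -0.21 ± 0.18. Psmb5, Psmb6 and Psmb7 were at -0.14 ± 0.13, -0.23 ± 0.12 and -0.20 ± 0.14, Psma7 at -0.15 ± 0.10 and the low Psma8 at 0.21 ± 0.64 (log2 fold change ± SE). Without KI mouse 1 Psmb6 was at -0.12 and Psmd14 at -0.17, and without WT mouse 4 Psmc5 was at -0.10 and Psmb5 at -0.079.

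**Figure D4:**
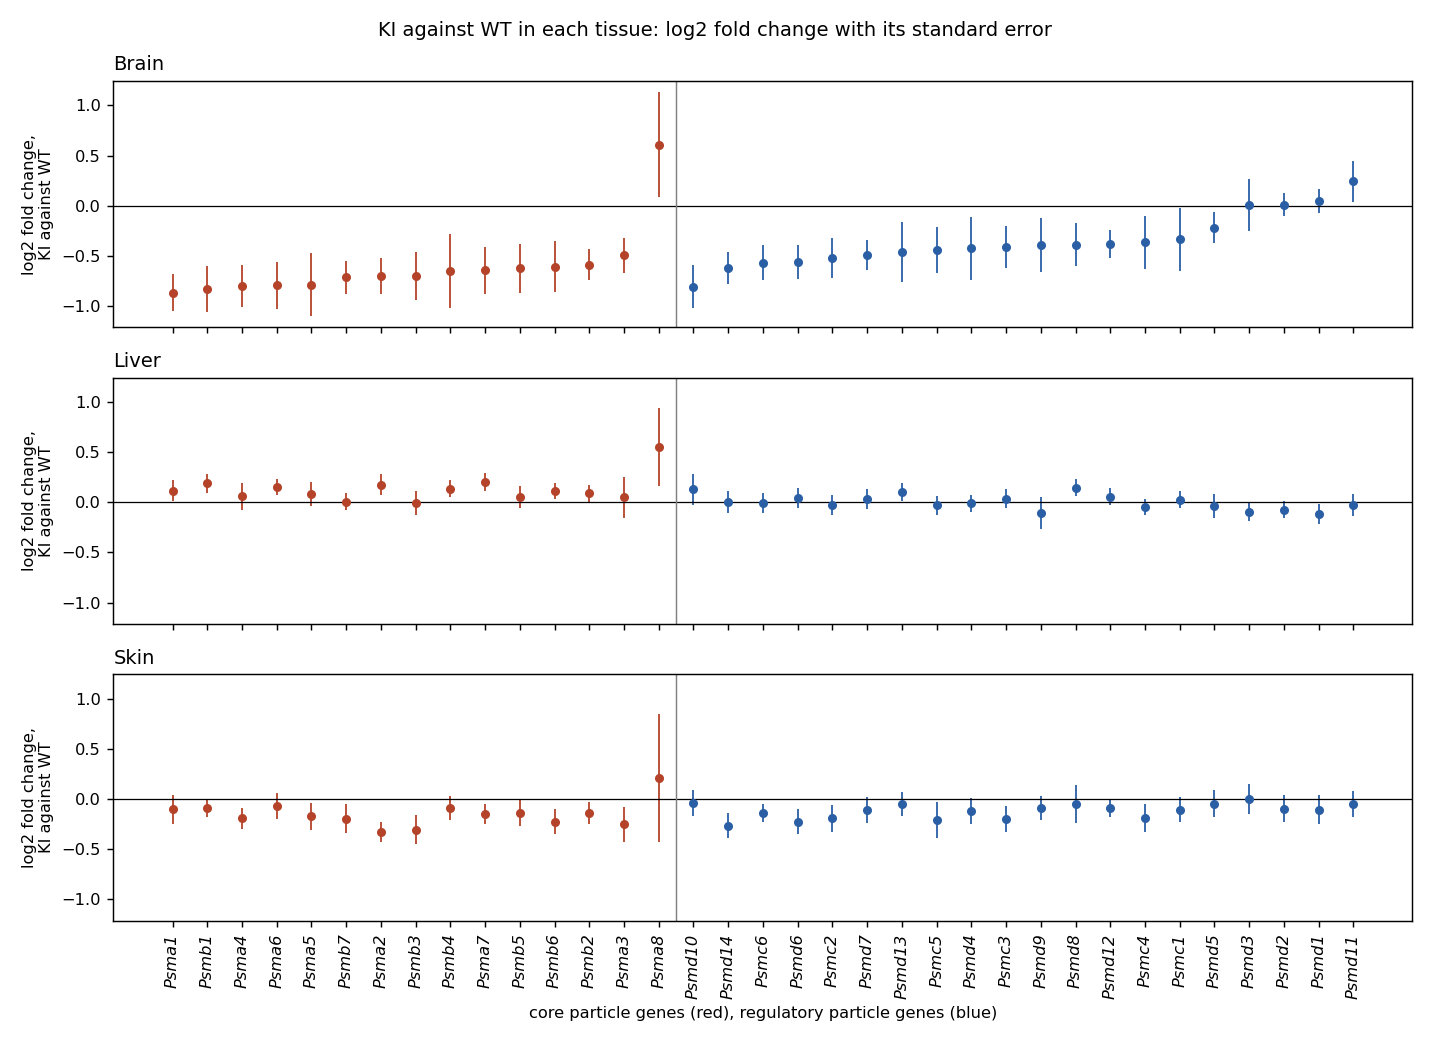
Log2 fold change of KI against WT with its SE for 35 members in brain, liver and skin, core genes in red and regulatory genes in blue, in the order of the brain values. Most members lie below 0 in brain, near 0 in liver and slightly below 0 in skin, and no member was called in any of the 3 panels.

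The KI effect on 6 core genes differed between brain and liver. In a fit over all 21 libraries, the difference of the effects was called lower in brain for 6 of 15 core genes and for 0 of 20 regulatory genes, against 1.77% of all genes (1.05% were called higher). At an unadjusted p under 0.05, 12 core and 6 regulatory genes were lower in brain (7.25% of all genes). The genes called were Psmb1 (-0.91 ± 0.22, adjusted p = 0.0466), Psma1 (-0.88 ± 0.21, 0.0492), Psma6 (-0.84 ± 0.23, 0.0844), Psma2 (-0.78 ± 0.18, 0.043), Psma4 (-0.76 ± 0.22, 0.0993) and Psmb2 (-0.58 ± 0.16, 0.0942; log2 difference ± SE, edgeR). In livers, Psma1 had 119 and 118 CPM in KI and 119, 109, 118, 93.4 and 107 CPM in WT, which overlapped, unlike in brain. Short transcripts differed in the same direction between these tissues: under 1000 bases, the median log2 fold change of all genes was -0.66 in brain and 0.11 in liver. With the length trend removed within each tissue, the log2 fold changes in brain and liver were -0.00095 and -0.0094 for Psmb2, so that its difference was gone. They were -0.68 and 0.20 for Psma2, -0.47 and 0.05 for Psma1, -0.35 and 0.11 for Psmb1, -0.32 and 0.08 for Psma6, and -0.38 and -0.0028 for Psma4, with no test of these differences. The calls rested on few libraries. 0 core genes were called without the libraries numbered KI 1 (0.0109% of all genes), KI 2 (0.0%) or WT 2 (0.829%), left out in all tissues, and without WT 1 only Psma2 was (0.456%). Without WT 3, 4 or 5 the counts were 6, 7 and 6 core genes (1.8%, 2.3% and 2.63% of all genes). Between brain and skin 0 members were called by edgeR, as were 0.0% of all genes in either direction. There 6 core and 1 regulatory gene were lower at an unadjusted p under 0.05 (4.12% of all genes). The largest of these differences were those of Psmd10 (-0.70 ± 0.24, edgeR adjusted p = 0.543) and Psma1 (-0.70 ± 0.21, 0.527). Between liver and skin 0 members were called by edgeR, where 0.0664% of all genes were called higher and 0.0332% lower. Psma2 (0.47 ± 0.18, edgeR adjusted p = 0.752) was the 1 member higher in liver at an unadjusted p under 0.05 (2.44% of all genes), and Psma7 had the next largest difference (0.32 ± 0.22).

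The balance of the particles, taken as the summed CPM per kb of the core genes over that of the regulatory genes in CPM normalised over all 21 libraries, was lower in the KI brains than in any WT brain. The ratio was 1.29, 1.20, 1.15, 1.17 and 1.27 in the WT brains 1 to 5 and 1.00 and 0.954 in the KI brains. In liver the KI libraries, at 1.04 and 1.03, lay above the WT libraries, at 0.938, 0.944, 0.950, 0.945 and 0.978. In skin KI (1.01 and 1.03) and WT (1.07, 1.10, 1.01, 0.936 and 1.03) overlapped. As a score over the members the ratio has no test. The core transcripts are the shorter ones, and short transcripts had lower medians in the KI brains and higher ones in the KI livers. With the length trend removed, the core and regulatory medians of the brain fold changes lay closer, at -0.30 and -0.18 against -0.70 and -0.40. No ratio was computed with that trend removed, and what part length had in the ratio was not tested. With the 19 members of unshared sequence alone the ratio kept the order of KI and WT: 0.777 and 0.743 in the KI brains against 0.892 to 1.02 in WT, and 0.813 and 0.833 in the KI livers against 0.741 to 0.751 in WT.

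**Figure D5:**
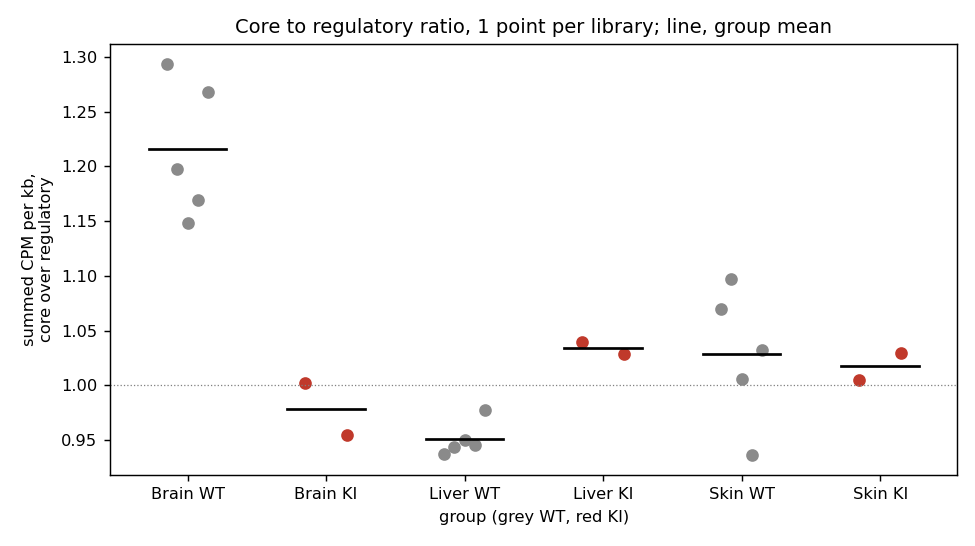
Ratio of the summed CPM per kb of the core genes to that of the regulatory genes in each library (WT grey, KI red), with group means as lines. KI lies below WT in brain and above WT in liver, and the groups overlap in skin.

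Beyond the members, 35 other genes of the pathway were followed, and of these only the 3 inducible subunits were called between KI and WT, in liver. In liver, Psmb8 had 48.7 and 55.3 CPM in KI and 30.7, 31.0, 31.6, 24.3 and 29.6 CPM in WT. Psmb9 had 20.8 and 23.4 CPM against 12.7, 11.6, 11.2, 10.4 and 12.3 CPM, and Psmb10 had 41.0 and 41.8 CPM against 30.7, 29.0, 31.7, 27.0 and 32.2 CPM. All 3 rose without overlap, by 0.82 ± 0.11, 0.92 ± 0.12 and 0.46 ± 0.10 on the log2 scale (SE; edgeR adjusted p = 0.00952, 0.00713 and 0.041), beside the values near 0 of Psmb5, Psmb6 and Psmb7, which they replace. Markers of immune cells were also higher in the KI livers: the summed CPM of 6 neutrophil genes was 5834 and 6992 against 3708 to 4890 in WT (2 of 6 called), and that of 6 macrophage genes 976 and 1164 against 604 to 838 (5 of 6 called). Other lists were lower in the KI livers: 6 erythroid genes summed to 2395 and 2498 CPM against 2809 to 3905 CPM in WT (1 of 4 tested called), and 8 genes of proliferating cells to 1317 and 1346 against 1466 to 2093 CPM (1 of 8 called). Their part in the result was not tested. In skin Psmb8 and Psmb9 had log2 fold changes of 0.82 ± 0.24 and 0.97 ± 0.24 and Psmb10 of 0.44 ± 0.29, none called (edgeR adjusted p = 0.786, 0.695 and 0.999). The macrophage genes summed to 632 and 856 CPM in the KI skins and to 405 to 563 CPM in the WT skins, with 0 of 6 called. The neutrophil genes overlapped there, at 16.9 and 24.3 CPM in KI and 14.9 to 33.2 CPM in WT. Erythroid genes were low and below WT, at 9.87 and 14.8 against 15.2 to 32.2 CPM. The keratinocyte genes differed widely between the KI skins, at 860 and 13661 CPM, with 1459 to 16614 CPM in WT. The part of these lists was not tested either.

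In brain no gene of the pathway was called, and 9 of the 35 were lower and 0 higher at an unadjusted p under 0.05 (7.81% and 2.80% of all genes). The largest differences were those of Shfm1, a small lid subunit (-1.26 ± 0.28), Rps27a, which encodes ubiquitin joined to a ribosomal protein (-1.05 ± 0.25), the assembly factors Pomp (-0.96 ± 0.25) and Psmg4 (-0.85 ± 0.30), and the polyubiquitin gene Ubb (-0.82 ± 0.33; log2 fold change ± SE). Pomp had 116 and 101 CPM in the KI brains and 230, 197, 171, 160 and 301 CPM in the WT brains, again without overlap. Without WT mouse 5, 8 of the 35 were called lower and 2 higher by edgeR (6.32% and 4.14% of all genes). In liver Ddi2 and Ube3c had the largest values after the inducible subunits, at -0.40 and -0.36 on the log2 scale, and in skin Ddi2 and Psmg3, at 0.39 and -0.32. None of these 4 values was called.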

How the data were processed

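RNA of brain, liver and skin from 2 KI and 5 WT mice was sequenced as paired ends. The deposited values were raw counts of reads on each gene, made by the authors. Per the submitters' processing notes and the study's methods, reads were aligned to mm9 with TopHat2 and counted with HTSeq, and the RNA of skin was of lower quality than that of liver. No RNA quality of brain is named there. Summary lines that name no gene were left out, and 80.5 to 87.6% of counted fragments lay on genes. Whether counting used the strand is not given in the sources used here.

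Counts were filtered with filterByExpr, normalised by TMM and tested with edgeR 4.0.16 (quasi-likelihood, R 4.3.3) within each tissue for KI against WT, over the 15 WT libraries for tissues, and over all 21 libraries for differences of KI effects. DESeq2 1.42.0, size factors, no filter, a replicate block, a loess trend on transcript length (span 0.3) and leaving out each replicate number, in all tissues of a fit, were the alternatives. By the study's methods the same mice gave all tissues, but the labels tie tissues to mice only by a number. The main fits over the 15 WT and over all 21 libraries treated libraries of different tissues as independent. Their p-values therefore measure the spread between these samples. The scripts were tested on simulated data. CPM scales were set within a tissue, over WT or over all libraries and are not interchangeable. Levels per kb used the GENCODE transcript with the longest coding sequence, and shared sequence was found with minimap2 2.31. The members, gene lists and rules for named genes were chosen with earlier results of these data known. Named members were the protease subunits, Psma7, Psma8, the 3 core and 3 regulatory genes with the largest change in each comparison of 2 groups (for KI effects the called or 2 largest), every called gene where 5 or fewer were, and the highest and lowest per kb. Others were singled out after their values were seen.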

Additional observations from a re-analysis of the deposited data

Results flagged for a closer look

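A library far from the other WT libraries of its tissue was found in 17 of 114 groups of 5 tested by Dixon's criterion. Of the 17, 15 were the brain of WT mouse 5. The groups hold the same libraries, so 1 deviating library can be flagged many times. The chance rate of about 1 of 20 groups therefore does not apply to their number. In core genes its level was 55.0 CPM of Psmb3, 485 CPM of Psmb4 and 303 CPM of Psmb6, each above the other 4 WT brains. In the ATPases it was 191 CPM of Psmc1, 326 CPM of Psmc3, 239 CPM of Psmc4 and 276 CPM of Psmc5. In the other regulatory genes it was 194 CPM of Psmd2, 255 CPM of Psmd3, 309 CPM of Psmd4, 284 CPM of Psmd8, 90.4 CPM of Psmd9 and 246.0 CPM of Psmd13, and it was low for Psmd11, with 17.5 CPM. The summed level of the regulatory genes in this library was 1855 CPM per kb. The remaining values were 109.94 CPM of Psmd9 in the liver library numbered WT 4 and 164 CPM of Psmc4 in the skin library numbered WT 4.

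The KI effect differed between brain and liver by the interaction term of edgeR's fit in 6 core genes. The log2 difference of the effects, brain minus liver, was -0.88 for Psma1, -0.78 for Psma2, -0.76 for Psma4, -0.84 for Psma6, -0.91 for Psmb1 and -0.58 for Psmb2. With the length trend removed in each tissue, Psmb2 showed no difference (-0.00095 in brain and -0.0094 in liver), and the brain values of Psma1, Psma4, Psma6 and Psmb1 lay between -0.47 and -0.32. The causes of these patterns were not tested.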

How the results depend on the processing

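The KI effect in brain depended most on the processing. Against 0 called members, edgeR over all 21 libraries called 9 core and 4 regulatory genes, DESeq2 7 and 2, and leaving out 1 mouse gave 0 to 13 and 0 to 8, with the highest counts without WT mouse 5. KI and WT libraries of 1 number shared only a number: their deviations correlated at -0.095 to 0.20, and those of WT libraries of 1 number across tissues at -0.0061 to 0.17. The fit with a replicate block called 14 core and 10 regulatory genes in brain (8.47% of all genes lower), 1 regulatory gene for brain against liver, and moved no WT tissue count by over 1.5 times. Within a tissue, WT 3, 4 and 5 have no KI library of their number. The block there compared KI 1 and 2 with WT 1 and 2 alone and left little to estimate a gene's spread from. The brain counts and liver values under the block are weak for that reason. With the length trend removed, the core median was -0.30 in brain, 0.051 in liver and -0.026 in skin. With WT mouse 5 also left out, a setting chosen after seeing the data, the brain medians were -0.31 (core) and -0.15 (regulatory). At a minimum log2 difference of 1, WT brain and liver differed in 2 core and 1 regulatory genes, brain and skin in 1 and 0, liver and skin in 1 and 1. Liver and skin had 2 to 5 core calls with 1 replicate number left out. For the KI effect in brain against liver, the core count was 3 without the filter and 0 to 7 with 1 replicate number left out, and the regulatory count was 1 with size factors and 0 to 1 with 1 number left out. The share of all genes called was not taken without the filter, with size factors or for WT tissues with 1 number left out. Ratios without length were 0.566 (brain KI), 0.724 (brain WT), 0.605 (liver KI), 0.553 (liver WT), 0.598 (skin KI) and 0.608 (skin WT), and with members of unshared sequence, chosen after seeing the data, 0.760, 0.944, 0.823, 0.745, 0.780 and 0.773. Signs turned in liver for Psmb5 (-0.00315) and Psmd10 (-0.059) under the block, and for Psmb7 with all 21 libraries (-0.00866) and with 1 mouse left out (-0.012 to 0.044). They also turned for Psma8 in brain against skin, under the block (0.030) and with 1 number left out (-0.36 to 0.49), and for Psmb5 in liver against skin with 1 number left out (-0.086 to 0.076). None of these was called. The cause was not tested. With 2 KI mice, small changes are beyond the precision of these data.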
